A study of Mus musculus with 9 samples.

Results

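Matrix metalloproteinases (MMPs), the ADAMTS proteases and the tissue inhibitors of metalloproteinases (TIMPs) were followed in mouse intrahepatic cholangiocarcinoma cells with and without an edited Vcam1 gene. Members were taken by gene symbol alone, as every symbol made of Mmp, Adamts or Timp and a number, with Mmp1a and Mmp1b kept apart. This gave 46 of the 55276 symbols in the count table, namely 23 MMP genes, 19 ADAMTS genes and 4 TIMP genes. The rule itself uses no measured value, though the family was picked with earlier results of these data known.

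MMPs are secreted or membrane-bound zinc endopeptidases that are made as inactive proenzymes and cut collagens, gelatin, proteoglycans and other proteins of the extracellular matrix once their propeptide is removed. The ADAMTS proteases are secreted relatives with thrombospondin motifs that process procollagens, cut proteoglycans such as versican, or act on fibrillin microfibrils and von Willebrand factor. TIMPs bind the active site of these enzymes and block them. In the liver, activated stellate cells and myofibroblasts are a well-known source of Mmp2, Mmp14, Timp1 and procollagen N-proteinases, and the balance of enzymes and inhibitors governs how scar matrix is laid down and removed.

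The cells came from liver tumors of mice with Prom1CreERT2, which puts an inducible Cre under the Prom1 promoter, and a Rosa-ZsGreen reporter, and all 3 groups share the same alleles. The controls are labelled WT and are called ctrl here. The groups KO1 and KO2 are Vcam1KO1 and Vcam1KO2, each 1 single-cell clone made by CRISPR/Cas9 with a guide to Vcam1, the gene of a cell surface adhesion molecule. Messenger RNA was sequenced from cultures in serum-containing medium in 9 libraries, 3 per group, which the study took from different passages. Between single groups, p-values therefore measure the spread between libraries of 1 culture or clone and not between independent clones. With the clones pooled, the 6 libraries of 2 clones were tested as 1 group, so the difference between the clones entered the spread. Those libraries are not 6 independent knockouts. No age, sex or added treatment separates the groups in the labels.

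Libraries held between 53415907 and 125223073 counts. Vcam1 itself stood at 221 to 329 CPM (the count of a gene relative to the size of its library, scaled with TMM factors) in ctrl, 92.4 to 128 in KO1 and 83.0 to 119 in KO2. The ctrl cells held the markers of the labelled biliary tumor, and both clones lacked most of them. Of 10 tested epithelial and biliary markers, 7 were lower and 1 higher in each clone: Krt7, Krt8, Krt18, Krt19, Epcam and Cdh1 were at 17.4 to 5570 CPM in ctrl and at 1.61 CPM or less in every clone library, Cldn4 was low throughout, Spp1 was higher, and Sox9 passed the threshold in neither clone. Hnf4a, a factor of liver epithelium, went from 207 to 264 CPM in ctrl to 0 counts in all 6 clone libraries. Of 9 tested fibroblast and stellate markers, 6 were higher and 1 lower in KO1, and 7 were higher and 0 lower in KO2. The sum over all 12 on that list was 429 to 832 CPM in ctrl, 12553 to 15977 in KO1 and 6763 to 9103 in KO2, most of it from the collagens Col1a1, Col1a2 and Col3a1 and from Postn, while Dcn was lower in KO1 (2.16 to 8.35 CPM against 58.3 to 105 in ctrl), Fap was called in neither clone, and Thy1 and Lrat were under 1 CPM in every library. Of 8 haematopoietic markers, Ptprc was under 1 CPM in every library. Their sum was 112 to 178 CPM in ctrl, 28.5 to 40.1 in KO1 and 48.7 to 52.3 in KO2, most of it from Cd14 (100 to 157 CPM in ctrl). Of 5 tested, 3 were lower and 1 higher in KO1, and 3 were lower and 0 higher in KO2. The 1 higher was Lyz2, at 0.0759 to 0.148 CPM in ctrl and 3.66 to 4.59 in KO1. The 6 endothelial markers summed to 2.04 CPM or less in every library. These lists move with many of the results below, and their part in them was not tested. Replicate 3 of KO1 stood apart from the other KO1 libraries, and values without it are given where they end or add a call or move a fold by over 1.5 times.

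Of the 46 members, 38 had enough counts to be tested among 17672 genes, and more of them were higher in the clones than lower. With both clones pooled against ctrl, 18 of the 38 were higher and 4 lower at an adjusted p under 0.05, where 21.7% of all genes tested were higher and 21.2% lower. Every adjusted p comes from the quasi-likelihood test of edgeR, with Benjamini-Hochberg adjustment over all genes tested. The median log2 fold change of the 38 was 1.40, against 0.07 over all genes tested. In 24 of the 38 the clone libraries and the ctrl libraries did not overlap, 18 above and 6 below, and 44.2% of all genes tested had no overlap. Without replicate 3 of KO1, 19 were higher and 5 lower.

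The families differed in how they were divided. ADAMTS genes were mostly higher in the clones, with 12 of 16 (75%) higher and 1 (6.25%) lower in KO against ctrl. Their median log2 fold change was 3.39. MMP genes went both ways, with 5 of 18 (27.8%) higher, 2 (11.1%) lower and a median of 0.09. Of the TIMP genes 1 of 4 (25%) was higher and 1 (25%) lower. Over all genes tested 21.7% were higher and 21.2% lower, with a median of 0.07. The MMP and TIMP shares higher were near that of all genes. In CPM summed over a family, MMP genes were at 1212 ± 178 in ctrl, 2749 ± 1112 in KO1 and 1749 ± 295 in KO2 (SD, n = 3), and ADAMTS genes at 335 ± 113, 1622 ± 738 and 989 ± 217 CPM. The TIMP sum was 790 ± 135 CPM in ctrl, 1648 ± 432 in KO1 and 1478 ± 211 in KO2.

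**Figure D1:**
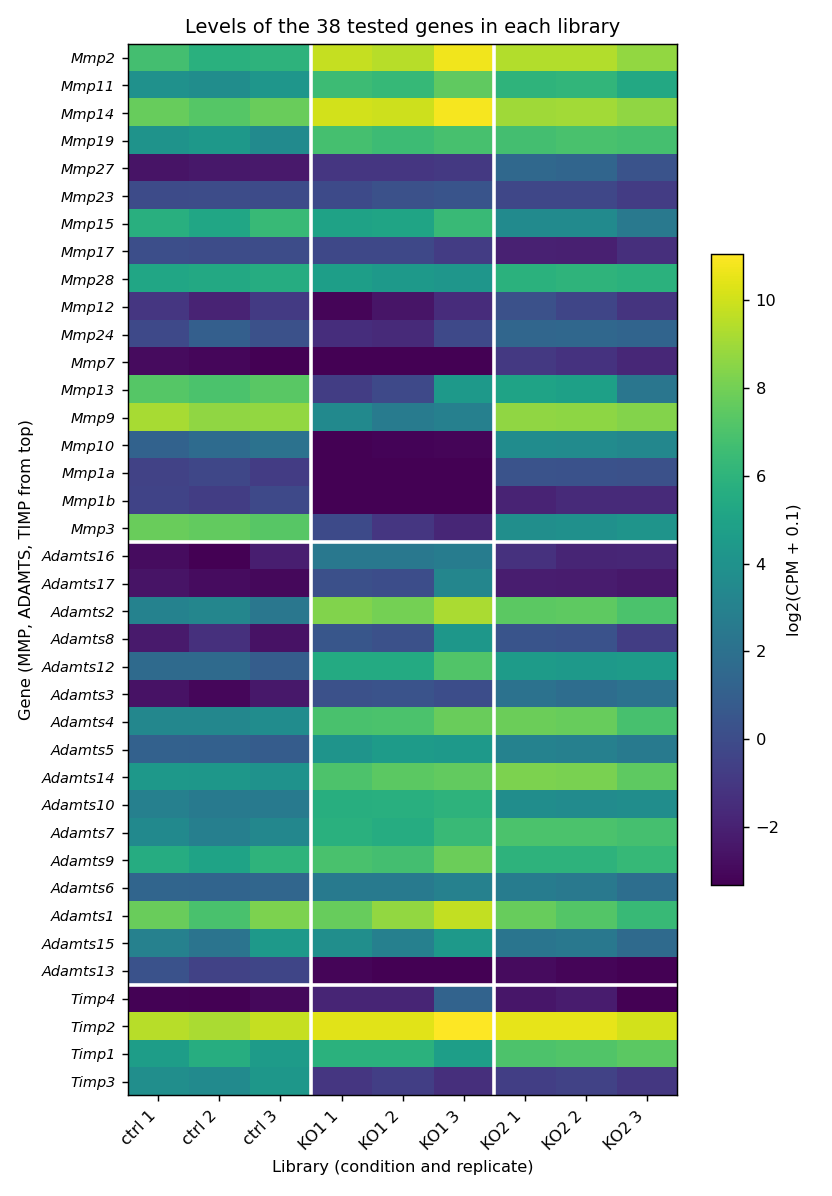
Rows are the 38 tested genes, grouped by family and sorted by fold change in KO1, columns are the 9 libraries, and colour is log2(CPM + 0.1). Mmp9, Mmp10, Mmp1a, Mmp1b and Mmp3 are darkest in KO1, most ADAMTS rows are brighter in both clones, and Timp3 is dark in all 6 clone libraries.

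Each clone was then set against the same 3 ctrl libraries, so the comparisons share their controls and their values are given side by side only. In KO1 20 members were higher and 10 lower, where 29.9% and 30% of all genes tested were, with a median log2 fold change of 1.30 for the members and 0.02 for all genes. In KO2 21 members were higher and 6 lower, where 25.3% and 26.1% of all genes tested were, with a median of 1.09 for the members and 0.00 for all genes. Among MMP genes, 5 (27.8%) were higher and 8 (44.4%) lower in KO1, and 9 (50%) were higher and 4 (22.2%) lower in KO2. The share higher in KO1 and that lower in KO2 were near those of all genes. Among ADAMTS genes, 13 (81.2%) were higher and 1 (6.25%) lower in KO1, and 10 (62.5%) were higher and 1 (6.25%) lower in KO2.

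Several genes of collagenases, which open fibrillar collagen, and of stromelysins, which activate other MMPs, lie together on mouse chromosome 9. In the GRCm38 annotation, 10 members sat within 427.1 kb (9:7272514-7699585), in the order Mmp13, Mmp12, Mmp1b, Mmp3, Mmp1a, Mmp10, Mmp8, Mmp27, Mmp20 and Mmp7, with Mmp1b alone on the minus strand. Their promoters share short motifs. In the 250 bases before the start, an AP-1 motif (TGAGTCA or its reverse complement TGACTCA, so both strands) was found in 7 of these 10 genes, counting a gene where any of its starts held it, and in 5.16% of the 27025 genes of the RefSeq table on GRCm38.p6 counted the same way. The TATA motif (TATAAA, either strand) was found in 7 of the 10, and in 14.3% of all genes. These letters describe the windows and show no binding. Of the 46 members 32 had a promoter in the table, and the AP-1 motif was found in 7 of 18 MMP genes, 0 of 10 ADAMTS genes and 0 of 4 TIMP genes. The 120 bases before the start of the 5 cluster genes whose values follow first are shown 5′ to 3′ on the gene's strand, with the AP-1 and TATA motifs, which do not overlap, in capitals.
Mmp13, chr9:7272394-7272513, plus strand: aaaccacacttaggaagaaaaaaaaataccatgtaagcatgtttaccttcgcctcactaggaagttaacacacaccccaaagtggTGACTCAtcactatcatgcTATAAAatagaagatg
Mmp3, chr9:7445702-7445821, plus strand: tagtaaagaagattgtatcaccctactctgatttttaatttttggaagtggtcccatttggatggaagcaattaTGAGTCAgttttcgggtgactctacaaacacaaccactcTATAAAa
Mmp10, chr9:7502222-7502341, plus strand: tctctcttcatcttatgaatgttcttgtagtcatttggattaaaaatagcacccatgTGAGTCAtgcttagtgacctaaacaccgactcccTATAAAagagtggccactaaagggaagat
Mmp1a, chr9:7464021-7464140, plus strand: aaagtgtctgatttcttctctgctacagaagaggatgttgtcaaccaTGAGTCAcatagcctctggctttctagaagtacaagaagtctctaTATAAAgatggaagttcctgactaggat
Mmp1b, chr9:7388027-7388146, minus strand: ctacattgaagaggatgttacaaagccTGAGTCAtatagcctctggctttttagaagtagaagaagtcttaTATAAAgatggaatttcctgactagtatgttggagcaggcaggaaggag

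Mmp3, stromelysin 1, which cuts proteoglycans and activates procollagenases, was among the most abundant members of ctrl cells and fell in both clones. It was at 216, 194 and 162 CPM in ctrl, at 0.824, 0.386 and 0.192 CPM in KO1 and at 13.8, 14.6 and 17.1 CPM in KO2. The 3 groups did not overlap, and KO1 was the lowest. The log2 fold change was -8.67 ± 0.43 (standard error, as for all fold changes here) in KO1 (adjusted p = 3.8e-07), -3.66 ± 0.33 in KO2 (adjusted p = 1.7e-05) and -4.61 ± 1.21 with the clones pooled (adjusted p = 0.013), and without replicate 1 of KO1 the value in KO1 was -9.35.

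Mmp13, the main collagenase of rodents, was at 152, 125 and 163 CPM in ctrl, at 0.509, 0.814 and 21.4 in KO1 and at 32.7, 28.8 and 4.97 in KO2. Every clone library lay below every ctrl library, but replicate 3 of KO1 was far above the other KO1 libraries and replicate 3 of KO2 below the other KO2 libraries. The pooled log2 fold change was -3.30 ± 1.07 (adjusted p = 0.032), and without any 1 ctrl library or without replicate 3 of KO2 the adjusted p rose over the threshold, up to 0.074. In KO1 the fold change was -4.28 ± 1.30 (adjusted p = 0.017), and without replicate 3 of KO1 it was -7.76. In KO2 it was -2.73 ± 1.21 and missed the threshold (adjusted p = 0.086).

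Mmp10, stromelysin 2, a close relative of Mmp3, moved in opposite directions in the clones. It was at 2.16, 3.19 and 4.25 CPM in ctrl and at 12.6, 12.2 and 9.88 CPM in KO2, where every library was above every ctrl library. In KO1 only 2 counts were found over all 3 libraries, a level 340-fold below ctrl (95% counting interval 93.7 to 2809). The rise in KO2 was 1.85 ± 0.29 on the log2 scale (adjusted p = 0.00053), and the fall in KO1 had an adjusted p of 1.2e-06.

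Mmp1a and Mmp1b, the mouse counterparts of interstitial collagenase, had 0 counts in every KO1 library. The GRCm38 annotation used here lists Mmp1a as a polymorphic pseudogene and Mmp1b as protein-coding. Mmp1a was at 0.614, 0.720 and 0.493 CPM in ctrl and at 1.17, 1.15 and 1.09 CPM in KO2. Set at the limit of 3 counts per library, its level in KO1 was at least 14.7-fold below ctrl (adjusted p = 1.7e-05), and in KO2 it rose by 0.90 ± 0.29 on the log2 scale (adjusted p = 0.034). Leaving out 1 library lost that rise in 5 of 9 cases, with adjusted p up to 0.10 (without ctrl replicate 1 or 3, or any KO2 library). Mmp1b was at 0.645, 0.517 and 0.784 CPM in ctrl and at 0.171, 0.226 and 0.222 CPM in KO2, where the fall was -1.64 ± 0.35 (adjusted p = 0.0054), and it was at least 15.7-fold lower in KO1 than in ctrl (adjusted p = 2.4e-05). The pair are near copies of each other, so reads may have been split between them and their separate values are uncertain.

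The other cluster genes were low. Mmp27, a little-studied member that stays within the secretory pathway, was at 0.0717, 0.0923 and 0.101 CPM in ctrl, at 0.374, 0.386 and 0.431 in KO1 and at 2.81, 2.46 and 1.20 in KO2. The groups did not overlap and both clones were higher, by 2.17 ± 0.41 in KO1 (adjusted p = 0.0013), 4.61 ± 0.41 in KO2 (adjusted p = 1.6e-05) and 3.84 ± 0.91 with the clones pooled (log2, adjusted p = 0.0081). Mmp7, matrilysin, a small MMP of glandular epithelium, was at 0.207 to 0.428 CPM in KO2 and at 0.0319 CPM or less in ctrl, and had 0 counts in KO1. It was higher in KO2 than in ctrl (adjusted p = 0.0024) and at least 7.74-fold lower in KO1 than in KO2 (adjusted p = 0.0016). Mmp12, the macrophage elastase, was under 1.1 CPM in all libraries and passed the threshold against ctrl in neither clone, with adjusted p of 0.11 in KO1 and 0.23 in KO2. Mmp8, the neutrophil collagenase, and Mmp20, the enamel protease, had too few counts for a test, with highest counts of 6 and 1. The highest count of Mmp8 fell in KO2, where it had 5 to 6 counts per library.

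**Figure D2:**
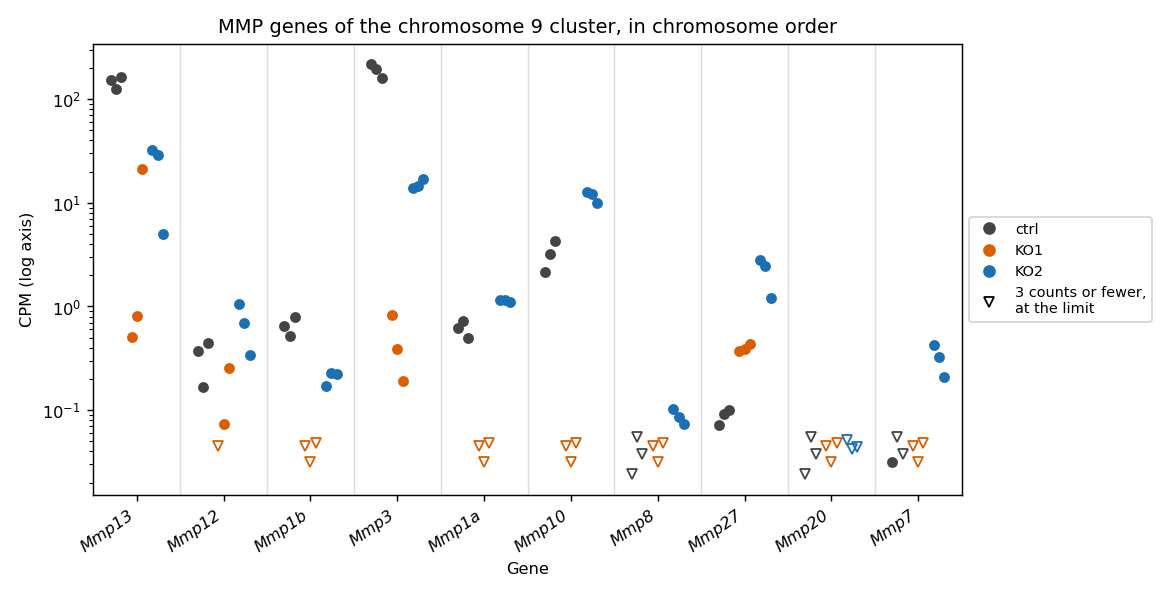
Points are CPM on a log axis in the 9 libraries for the 10 MMP genes of the chromosome 9 cluster, in their order along the chromosome (ctrl grey, KO1 orange, KO2 blue), and open triangles stand at the limit for libraries with 3 counts or fewer. KO1 is at or near the limit for Mmp1b, Mmp1a, Mmp10 and Mmp7, while KO2 lies above ctrl for Mmp10 and Mmp1a and below it for Mmp3 and Mmp1b.

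The gelatinases Mmp2 and Mmp9, which digest denatured collagen and basement membrane collagen IV, went apart in KO1. Mmp9 was at 583, 398 and 417 CPM in ctrl, at 11.3, 6.30 and 7.42 in KO1 and at 399, 393 and 337 in KO2. KO1 lay far below both other groups, while ctrl and KO2 overlapped. The log2 fold change was -5.80 ± 0.28 in KO1 (adjusted p = 3.1e-07) and -0.31 ± 0.23 in KO2 (adjusted p = 0.28). With the clones pooled it was -1.28 ± 1.25 (adjusted p = 0.44), since the spread between the clones then counts as error, whereas the average of the separate clone contrasts passed the threshold.

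Mmp2 rose in both clones. It was at 107, 56.3 and 63.7 CPM in ctrl, at 890, 738 and 1736 in KO1 and at 671, 682 and 419 in KO2. Every clone library was above every ctrl library, with replicate 3 of KO1 the highest. The log2 fold change was 3.89 ± 0.40 in KO1 (adjusted p = 3.2e-05), 2.96 ± 0.39 in KO2 (adjusted p = 0.00018) and 3.50 ± 0.49 with the clones pooled (adjusted p = 0.00044), and the clones were not called different (0.92 ± 0.36, adjusted p = 0.070).

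Among the membrane-anchored MMPs, Mmp14, the collagenase and activator of Mmp2 at the cell surface, rose in both clones and most in KO1. Its values were 212, 152 and 222 CPM in ctrl, 1092, 993 and 1844 in KO1 and 520, 531 and 400 in KO2. The 3 groups did not overlap. The rise was 2.75 ± 0.27 in KO1 (adjusted p = 2.2e-05), 1.31 ± 0.26 in KO2 (adjusted p = 0.0020) and 2.20 ± 0.51 with the clones pooled (log2, adjusted p = 0.0070), and it was larger in KO1 than in KO2 by 1.44 ± 0.26 (adjusted p = 0.0023).

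None of the other membrane-anchored members was called higher in either clone than in ctrl. Mmp15, another transmembrane MMP, fell in KO2 by 2.57 on the log2 scale (standard error 0.48, adjusted p = 0.0016), from 36.6 to 81.4 CPM in ctrl to 5.56 to 11.7 CPM, and overlapped ctrl in KO1 at 30.9 to 86.2 CPM (adjusted p = 0.75). With the clones pooled its log2 fold change was -0.93 (adjusted p = 0.33), and without replicate 3 of KO1 it was -1.61 and passed the threshold (adjusted p = 0.043). Mmp17, held by a lipid anchor, was at 0.898 to 0.988 CPM in ctrl and 0.141 to 0.281 CPM in KO2, where it fell by 2.27 on the log2 scale (standard error 0.36, adjusted p = 0.00054), and at 0.495 to 0.772 CPM in KO1 (adjusted p = 0.24). Mmp24, best known from neurons, was at 0.813 to 1.96 CPM in ctrl and 0.230 to 0.798 CPM in KO1 (-1.58 ± 0.51 on the log2 scale, adjusted p = 0.022), and this call was lost without ctrl replicate 2 or without KO1 replicate 1 or 2, with adjusted p up to 0.072, while without KO1 replicate 3 the value was -2.35. In KO2 Mmp24 was at 2.34 to 2.69 CPM, every library above every ctrl library, and did not pass the threshold (0.98 ± 0.48, adjusted p = 0.12). Mmp16 and the lipid-anchored Mmp25 had highest counts of 6 and 8 and were not tested.

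Among the remaining secreted MMPs, Mmp11, which furin activates inside the cell and which is a marker of tumor stroma, rose from 15.1, 13.3 and 19.0 CPM in ctrl to 94.0, 77.5 and 189 CPM in KO1 and 64.3, 69.4 and 40.9 CPM in KO2. No clone library overlapped ctrl, and the pooled log2 fold change was 2.49 ± 0.46 (adjusted p = 0.0022), with 2.92 ± 0.35 in KO1 (adjusted p = 8.3e-05) and 1.88 ± 0.34 in KO2 (adjusted p = 0.0013). Mmp19, a widely made basement membrane protease, stood at 16.6, 20.1 and 11.7 CPM in ctrl, 110, 92.4 and 116 in KO1 and 109, 120 and 113 in KO2. Its rise was of nearly one size in both clones, 2.72 ± 0.19 in KO1 (adjusted p = 2.7e-06), 2.82 ± 0.19 in KO2 (adjusted p = 2.9e-06) and 2.77 ± 0.19 pooled (log2, adjusted p = 5.9e-06), and the difference between the clones was -0.10 ± 0.18 (adjusted p = 0.69).

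Mmp28, epilysin, an MMP of epithelium, moved in opposite directions in the clones, from 35.7, 41.1 and 47.6 CPM in ctrl to 26.9, 21.4 and 18.8 CPM in KO1 and 58.7, 64.5 and 56.7 CPM in KO2. The groups did not overlap. The log2 fold change was -0.89 ± 0.16 in KO1 (adjusted p = 0.00088) and 0.53 ± 0.16 in KO2 (adjusted p = 0.017), and the rise in KO2 was lost without ctrl replicate 1 or 2 or without KO2 replicate 2, with adjusted p up to 0.075. Mmp23 was at 0.488 to 1.21 CPM over all libraries and passed the threshold in no comparison. Mmp21, with a highest count of 8, was not tested.

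Per kilobase of transcript, where genes can be compared with each other, the make-up of the MMP transcripts changed. In ctrl, Mmp9 made up 33.8% ± 2.86 of the summed MMP level per kb, Mmp3 24.7% ± 3.44, Mmp14 13.99% ± 2.15, Mmp13 12.8% ± 1.63 and Mmp2 5.59% ± 1.22 (SD, n = 3). In KO1, Mmp14 made up 46.8% ± 2.41 and Mmp2 40.9% ± 2.80, and Mmp9, Mmp3 and Mmp13 0.332% ± 0.157, 0.0354% ± 0.0277 and 0.233% ± 0.338. In KO2, Mmp2 made up 33.6% ± 3.14, Mmp14 26.5% ± 0.611 and Mmp9 21.2% ± 1.89, with Mmp3 at 1.54% ± 0.476. The share of Mmp9 thus separated the clones, while that of Mmp2 and Mmp14 lay above ctrl in all 6 clone libraries.

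**Figure D3:**
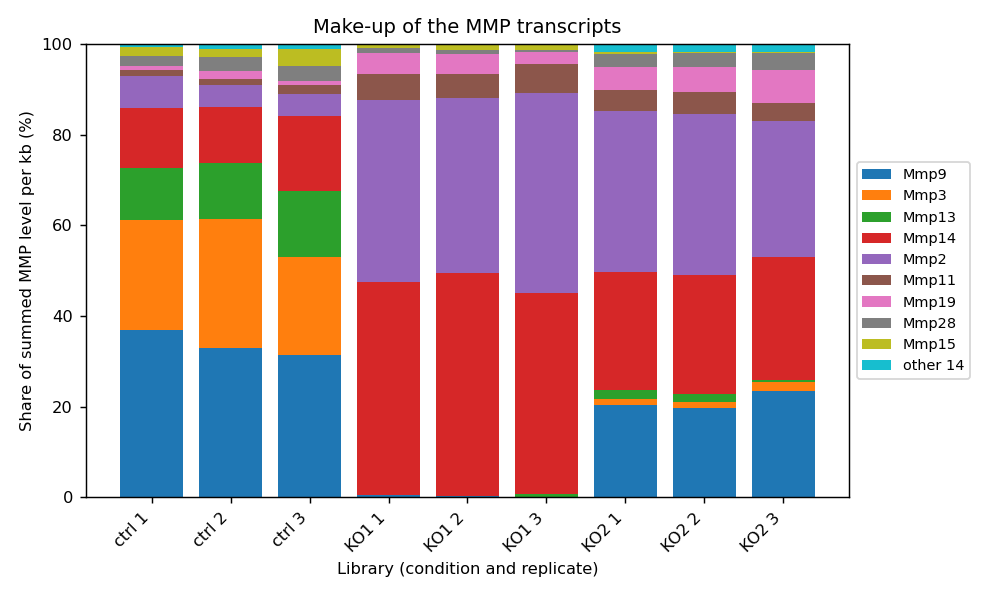
Each bar is 1 library and its segments are the shares, in percent, of the MMP level per kb of the longest transcript, summed over the family, for 9 genes and the other 14 together. Mmp9, Mmp3 and Mmp13 fill most of the ctrl bars, Mmp14 and Mmp2 fill most of the KO1 bars, and KO2 keeps an Mmp9 segment of 21.2% on average.

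The ADAMTS procollagen N-proteinases Adamts2, Adamts3 and Adamts14, which trim fibrillar procollagens before fibrils form, were all higher in both clones. Adamts2 was at 8.04, 9.43 and 5.13 CPM in ctrl, 325, 269 and 589 in KO1 and 174, 179 and 125 in KO2, and no library of either clone came near ctrl. Its rise was 5.71 ± 0.38 in KO1 (adjusted p = 2.0e-06), 4.40 ± 0.36 in KO2 (adjusted p = 9.1e-06) and 5.20 ± 0.61 with the clones pooled (log2, adjusted p = 0.00014). Adamts14 was at 19.9, 19.7 and 16.1 CPM in ctrl, 130, 174 and 192 in KO1 and 302, 283 and 179 in KO2, with pooled, KO1 and KO2 log2 fold changes of 3.50 ± 0.31, 3.15 ± 0.23 and 3.78 ± 0.24 (adjusted p = 2.7e-05, 3.6e-06 and 1.9e-06). Both were clear of ctrl in every clone library. Adamts3, which also helps to process the lymphatic growth factor VEGF-C, was at 0.0637, 0.0185 and 0.0885 CPM in ctrl, 1.09, 1.19 and 0.958 in KO1 and 4.10, 3.48 and 4.14 in KO2. All KO2 libraries lay above all KO1 libraries (-1.85 ± 0.31 for KO1 minus KO2, adjusted p = 0.0016), with log2 fold changes against ctrl of 4.13 ± 0.38 in KO1, 5.98 ± 0.40 in KO2 and 5.36 ± 0.84 pooled (adjusted p = 1.6e-05, 2.5e-06 and 0.00081).

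Of the proteoglycanases, which cut aggrecan and versican, Adamts4 and Adamts5 rose and Adamts1 and Adamts15 did not pass the threshold against ctrl. Adamts4 was at 10.1, 10.1 and 12.4 CPM in ctrl, 121, 126 and 218 in KO1 and 222, 210 and 115 in KO2, so that the clones overlapped each other and not ctrl. Its log2 fold change was 3.83 ± 0.32 in KO1 (adjusted p = 7.8e-06), 4.07 ± 0.32 in KO2 (adjusted p = 7.6e-06) and 3.95 ± 0.32 pooled (adjusted p = 1.6e-05). Adamts5 was at 2.14, 2.01 and 1.73 CPM in ctrl, 17.0, 23.9 and 22.0 in KO1 and 8.09, 7.44 and 5.68 in KO2, in 3 groups without overlap. Its log2 fold change was 3.42 ± 0.21 in KO1 (adjusted p = 1.3e-06), 1.85 ± 0.20 in KO2 (adjusted p = 5.4e-05) and 2.84 ± 0.55 pooled (adjusted p = 0.0026).

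Adamts1, the neighbour of Adamts5 on chromosome 16 (both within 108.0 kb, 16:85793827-85901828, minus strand), was the most abundant ADAMTS gene of ctrl cells and did not follow it. It was at 220, 120 and 301 CPM in ctrl, 211, 426 and 860 in KO1 and 211, 150 and 80.8 in KO2, so every group overlapped ctrl. Its log2 fold change was 1.22 ± 0.53 in KO1 (adjusted p = 0.072) and -0.54 ± 0.53 in KO2 (adjusted p = 0.42). Fos, an immediate-early AP-1 gene named here after its values were seen, was at 874, 338 and 1349 CPM in the same ctrl libraries, 91.2, 213 and 759 in KO1 and 86.0, 64.1 and 3.11 in KO2, and within each group it ranked the libraries as Adamts1 did. Its part in the spread of Adamts1 was not tested.

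Adamts8, Adamts9 and Adamts15 completed the proteoglycanases. Adamts9, a versican-cutting protease of development, was at 48.1, 32.8 and 65.4 CPM in ctrl, 120, 107 and 230 in KO1 and 61.4, 62.3 and 79.8 in KO2, and rose in KO1 only by the test (1.64 ± 0.33, adjusted p = 0.0018, against 0.48 ± 0.32, adjusted p = 0.24, in KO2). The difference between the clones passed the threshold too (1.17 ± 0.32, adjusted p = 0.018), though not without KO2 replicate 1 or 2, with adjusted p up to 0.074. Adamts8 was at 0.104, 0.295 and 0.0632 CPM in ctrl, 1.32, 1.09 and 19.8 in KO1 and 1.25, 1.15 and 0.518 in KO2. Every clone library was above ctrl, and replicate 3 of KO1 held most of the KO1 level. Its pooled log2 fold change of 4.79 ± 1.55 (adjusted p = 0.032) was 2.83 without replicate 3 of KO1 (adjusted p = 0.0047), where the value in KO1 was 3.05 in place of 5.67, and lost its call without any 1 ctrl library, with adjusted p up to 0.11. Adamts15, which lies beside Adamts8 within 64.7 kb of chromosome 9, overlapped ctrl in both clones (adjusted p = 0.59 in KO1 and 0.067 in KO2).

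Adamts7 and Adamts12, which cut cartilage oligomeric matrix protein, rose in both clones. Adamts7 was at 11.2, 7.18 and 9.88 CPM in ctrl, 56.7, 47.0 and 84.1 in KO1 and 124, 125 and 111 in KO2, in 3 separate groups with KO2 the highest. Its log2 fold change was 2.73 ± 0.24 in KO1 (adjusted p = 9.8e-06), 3.67 ± 0.25 in KO2 (adjusted p = 2.5e-06) and 3.28 ± 0.39 pooled (adjusted p = 0.00016). Adamts12 was at 2.98, 2.97 and 1.77 CPM in ctrl, 44.4, 44.8 and 141 in KO1 and 23.4, 21.8 and 23.7 in KO2, also in 3 separate groups but with KO1 the highest. Its log2 fold change was 4.90 ± 0.49 in KO1 (adjusted p = 2.7e-05), 3.16 ± 0.46 in KO2 (adjusted p = 0.00034) and 4.28 ± 0.76 pooled (adjusted p = 0.0017). Without replicate 3 of KO1 the KO1 value was 4.12, the pooled value 3.62 and the excess of KO1 over KO2 0.96 in place of 1.74, and all 3 still passed the threshold.

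Adamts6, Adamts10 and Adamts17 belong to the branch that works with fibrillin microfibrils. Adamts10 was at 7.50, 5.67 and 5.92 CPM in ctrl, 51.9, 54.4 and 63.3 in KO1 and 12.9, 12.1 and 13.3 in KO2. Its libraries were tight within each group, and it rose by 3.15 ± 0.15 in KO1 (adjusted p = 3.2e-07) and 1.0 ± 0.14 in KO2 (log2, adjusted p = 0.00029). With the clones pooled the fold change was 2.44 ± 0.68 (adjusted p = 0.016), and without any 1 ctrl library the pooled call was lost, with adjusted p up to 0.066. Adamts6 was at 2.49, 2.42 and 2.57 CPM in ctrl, 5.88, 5.87 and 7.79 in KO1 and 6.36, 5.53 and 3.56 in KO2, and rose by 1.39 ± 0.24 in KO1 (adjusted p = 0.00085), 1.05 ± 0.24 in KO2 (adjusted p = 0.0051) and 1.23 ± 0.26 pooled (adjusted p = 0.0044). Adamts17 was at 0.0717, 0.0369 and 0.0253 CPM in ctrl, 1.02, 0.950 and 9.74 in KO1 and 0.120, 0.113 and 0.0887 in KO2. It was high in KO1 alone, most of all in replicate 3, with a KO1 log2 fold change of 6.29 ± 1.08 (adjusted p = 0.00077) that was 4.32 without replicate 3, and the pooled value of 5.38 ± 1.94 was just past the threshold (adjusted p = 0.049), was 3.26 without replicate 3 of KO1 (adjusted p = 0.040) and lost its call without any 1 ctrl library or without KO1 replicate 1 or 2 (adjusted p up to 0.14).

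Adamts16, best known from kidney and gonad, was at 0.0398, 0 and 0.126 CPM in ctrl, 5.23, 5.21 and 6.35 in KO1 and 0.308, 0.184 and 0.192 in KO2. Both clones were above ctrl, and KO1 was above KO2 by 4.62 ± 0.56 on the log2 scale (adjusted p = 0.00029). Its log2 fold change was 6.55 ± 0.63 in KO1 (adjusted p = 2.1e-05), 1.94 ± 0.64 in KO2 (adjusted p = 0.030) and 5.63 ± 1.74 pooled (adjusted p = 0.027). The pooled call was lost without any 1 ctrl library (adjusted p up to 0.098), and the KO2 call without ctrl replicate 1, KO2 replicate 1 or KO2 replicate 3 (adjusted p up to 0.11). Without ctrl replicate 3 the log2 fold changes were 7.63 in KO1, 3.02 in KO2 and 6.80 pooled.

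Adamts13, the protease of von Willebrand factor that stellate cells of the liver make, was the only ADAMTS gene to fall in the pooled comparison. It was at 1.11, 0.609 and 0.708 CPM in ctrl, with 1 count over the 3 KO1 libraries and 3 counts over the 3 KO2 libraries. The ratio of ctrl to KO1 was 199 (95% counting interval 35.3 to 7874) and that of ctrl to KO2 57.8 (19.5 to 282), with adjusted p of 6.7e-05, 0.00016 and, pooled, 0.00013. Adamts18, Adamts19 and Adamts20 were not tested, with highest counts of 9, 3 and 0. Within 3 counts, the limit used here, Adamts19 and Adamts20 were not detectable at this depth.

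Of the inhibitors, Timp3 fell and Timp2 rose. Timp3, which binds to the matrix and inhibits ADAM and ADAMTS enzymes as well as MMPs, was at 13.9, 11.6 and 19.1 CPM in ctrl, 0.374, 0.543 and 0.287 in KO1 and 0.531, 0.608 and 0.399 in KO2. The clones overlapped each other far below ctrl, with log2 fold changes of -5.18 ± 0.33 in KO1 (adjusted p = 1.5e-06), -4.85 ± 0.32 in KO2 (adjusted p = 2.5e-06) and -5.01 ± 0.29 pooled (adjusted p = 2.5e-06). The difference between the clones was -0.33 ± 0.31 (adjusted p = 0.42). Timp2, which bridges Mmp14 and the proenzyme of Mmp2, was at 735, 603 and 891 CPM in ctrl, 1338, 1343 and 2118 in KO1 and 1477, 1449 and 1060 in KO2. No clone library overlapped ctrl, and it rose by 1.11 ± 0.23 in KO1 (adjusted p = 0.0026), 0.84 ± 0.23 in KO2 (adjusted p = 0.013) and 0.98 ± 0.23 pooled (log2, adjusted p = 0.0074).

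Timp1, an inducible inhibitor of tissue injury, rose in KO2. It was at 25.6, 49.3 and 23.4 CPM in ctrl, 57.0, 57.5 and 26.5 in KO1 and 129, 142 and 174 in KO2. KO1 overlapped ctrl through its replicate 3, and KO2 was above both. The log2 fold change was 2.18 ± 0.36 in KO2 (adjusted p = 0.00072), 0.52 ± 0.34 in KO1 (adjusted p = 0.22) and 1.58 ± 0.59 pooled (adjusted p = 0.055), and the pooled value passed the threshold without replicate 3 of KO1 (1.78, adjusted p = 0.014). Timp4, the inhibitor of heart and fat, had 3 counts in all over the ctrl libraries and was at 0.180, 0.177 and 2.30 CPM in KO1 and at 0.113 CPM or less in KO2. By counts KO1 was 66.2-fold above ctrl (95% counting interval 22.3 to 324, adjusted p = 0.0061), and without replicate 3 of KO1, which held most of the level, the ratio was 15.4 (4.77 to 78.9, adjusted p = 0.013). The difference of KO1 from KO2 (adjusted p = 0.038) did not pass the threshold without that library (adjusted p = 0.24).

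**Figure D4:**
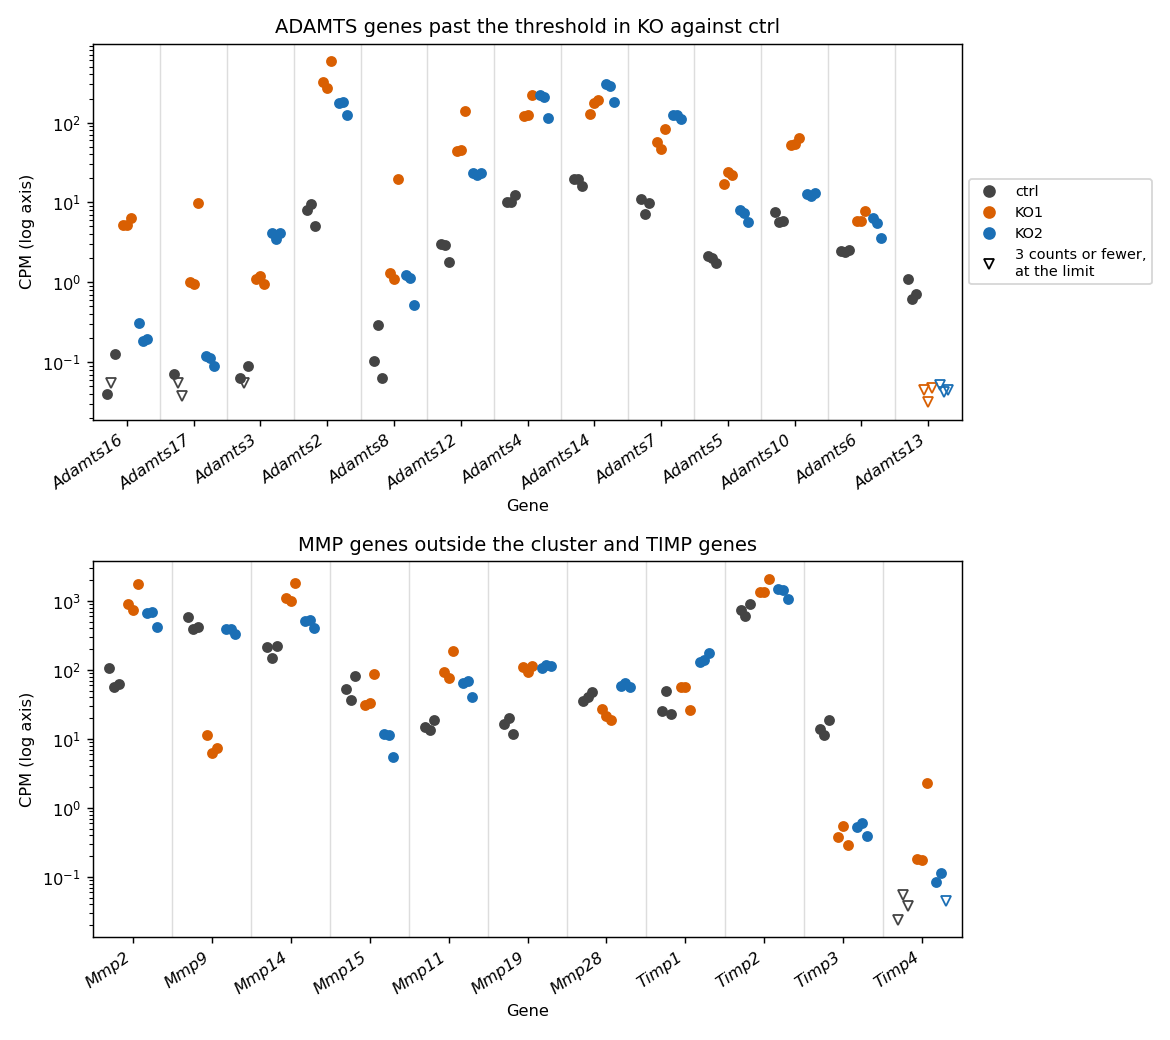
Points are CPM on a log axis in the 9 libraries (ctrl grey, KO1 orange, KO2 blue; open triangles at the limit for 3 counts or fewer), above for the 13 ADAMTS genes past the threshold with the clones pooled and below for MMP genes outside the cluster and the TIMP genes. Clone points lie above ctrl for the first 12 ADAMTS genes and for Mmp2, Mmp14 and Timp2, and below for Adamts13 and Timp3.

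Set directly against each other, without the shared controls, the clones differed in 28 of the 38 members, 14 higher in KO1 and 14 higher in KO2, where 20.2% of all genes tested were higher in KO1 and 18.5% lower. The families leaned in opposite directions. Of the MMP genes 10 of 18 were lower in KO1 and 4 higher, with a median log2 difference of -1.997 (-1.94 with genes at 0 in KO1 set at their limit), and of the ADAMTS genes 9 of 16 were higher in KO1 and 3 lower, with a median of 1.44. Mmp9 was lower in KO1 by -5.50 ± 0.27 (adjusted p = 2.4e-06), Mmp3 by -5.02 ± 0.38 (adjusted p = 2.1e-05), and Mmp1a was at least 27.4-fold lower (adjusted p = 3.9e-05). The largest differences the other way were in the low genes Adamts17 (5.16 ± 1.01, adjusted p = 0.0036) and Adamts16. Without replicate 3 of KO1, the value of Adamts17 was 3.18, that of Mmp15 1.74 in place of 2.38, that of Mmp12 -3.83 in place of -2.63 and that of Mmp24 -3.33 in place of -2.56. The count of members higher in KO1 was 10 without replicate 3 of KO1 and 9 without replicate 2 of KO2.

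**Figure D5:**
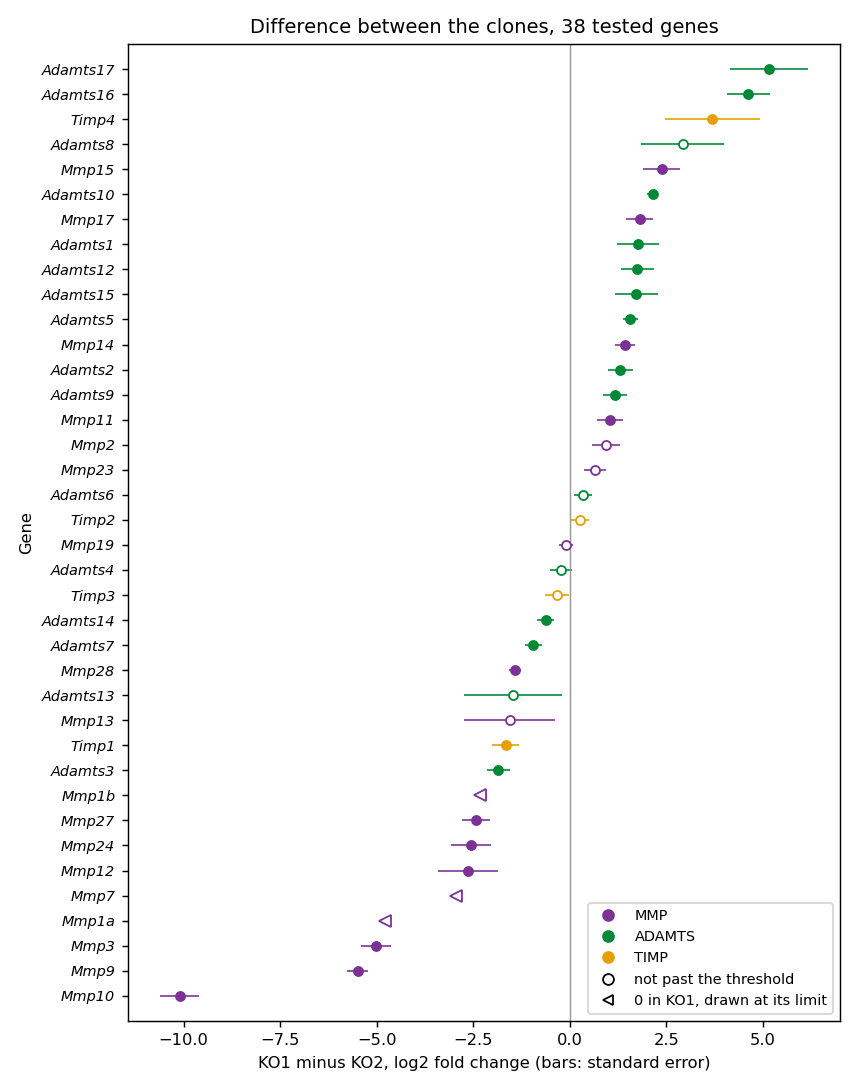
Points are the log2 fold change of KO1 against KO2 for the 38 tested genes with bars of 1 standard error, filled where past the threshold, and triangles mark genes at 0 in KO1 at the limit of their difference. MMP genes hold the lower end, from Mmp10 up to Mmp1b, and ADAMTS genes fill most of the upper end.

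The order of the members by level per kb of their longest transcript was led by Timp2 in every group, at 200.3 ± 38.9 CPM per kb in ctrl, 431 ± 121 in KO1 and 358 ± 62.9 in KO2 (SD, n = 3). In ctrl it was followed by Mmp9, Mmp3, Mmp14 and Mmp13, of which Timp2 and Mmp9 overlapped, as did Mmp14 and Mmp13. In KO1 it was followed by Mmp14, Mmp2 and Adamts1, and the libraries of Timp2, Mmp14 and Mmp2 overlapped from each to the next. In KO2 it was followed by Mmp2, Timp1, Mmp14 and Mmp9, and these 4 overlapped from each to the next. Within the ADAMTS family, Adamts1 made up 67.8% ± 6.58 of the summed level per kb in ctrl, 33.6% ± 9.49 in KO1 and 16.0% ± 3.83 in KO2, as Adamts2, Adamts4 and Adamts14 took larger shares. Within the TIMP family, Timp1 made up 15.9% ± 8.27 in ctrl, 11.8% ± 5.90 in KO1 and 32.3% ± 7.52 in KO2.

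Genes that act before, on and after these proteases were read from lists of their partners, against the 21.7% of all genes tested that were higher and the 21.2% that were lower in KO against ctrl. Of 8 tested activators 0 were higher and 2 (25%) lower, a share near that of all genes. Plaur, the urokinase receptor that gathers plasmin activity at the cell surface, fell from 224 to 245 CPM in ctrl to 4.26 to 18.9 in KO1 and 73.7 to 86.9 in KO2 (pooled log2 -2.36 ± 0.79, adjusted p = 0.036), and Pcsk6, a proprotein convertase, fell by 1.36 (standard error 0.41, adjusted p = 0.024). The count of 2 lower was 0 without ctrl replicate 1 or ctrl replicate 3 and 1 without ctrl replicate 2, KO1 replicate 1 or KO1 replicate 2. Of 5 other inhibitors and clearance receptors 3 were higher and 0 lower, among them Lrp1, the endocytic receptor that clears protease-inhibitor complexes (2.07 ± 0.33, adjusted p = 0.00088), and Serpine2, a serpin of serine proteases (1.13 ± 0.18, adjusted p = 0.00087).

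Of 15 tested substrates and partners 10 (66.7%) were higher and 2 (13.3%) lower. Col1a1, the chain of collagen I that Adamts2 and Adamts14 trim, was at 55.0 to 136 CPM in ctrl, 7780 to 9204 in KO1 and 4199 to 5008 in KO2 (pooled log2 6.06 ± 0.48, adjusted p = 1.4e-05). The members of this list called lower with the clones pooled were Eln, elastin (-10.11 ± 0.43, adjusted p = 4.4e-07), and Cspg4, a membrane proteoglycan (-7.40 ± 0.75, adjusted p = 5.9e-05). Cd44 missed the pooled threshold (adjusted p = 0.061), with every clone library below ctrl. It was called lower in KO1 (-2.57 ± 0.23, adjusted p = 1.3e-05) and in KO2 (-0.72 ± 0.22, adjusted p = 0.021). Of 9 tested ADAM proteases, the membrane-bound relatives, 3 (33.3%) were higher and 2 (22.2%) lower. Adam12 rose by 5.96 ± 1.26 (adjusted p = 0.0043), Adam23 by 3.84 ± 0.36 (adjusted p = 3.7e-05) and the sheddase Adam17 by 0.76 ± 0.10 (adjusted p = 0.00036). Of 6 tested ADAMTS-like proteins, which lack the protease domain, 2 (33.3%) were higher and 1 (16.7%) lower, and Adamtsl3 rose by 1.70 ± 0.38 (adjusted p = 0.0058). The larger changes on this list were in lower genes. Adamtsl2 rose by 8.89 ± 1.49 (adjusted p = 0.0012) and Papln fell (-6.10 ± 0.37, adjusted p = 3.5e-06).

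The list of AP-1 and ETS factors, families with known sites in MMP promoters, also held Runx2, which belongs to neither family. Of the 15 tested genes on it, 1 (6.67%) was higher in the pooled comparison, namely Runx2 (1.38 ± 0.21, adjusted p = 0.00077). On the same list 3 (20%) were lower, near the share of all genes, and the lower count was 6 without replicate 3 of KO1. The ETS factors Elf3, Ehf and Ets2 fell by 3.01 (standard error 0.50, adjusted p = 0.0012), 2.11 (standard error 0.41, adjusted p = 0.0027) and 2.04 (standard error 0.45, adjusted p = 0.0055) on the log2 scale. Between the clones 5 of the 15 (33.3%) were lower in KO1 and 2 (13.3%) higher, against 18.5% and 20.2% of all genes tested. Named after their values were seen, the AP-1 subunits went both ways, with Fosl1 lower in KO1 than in KO2 (-2.72 ± 0.29, adjusted p = 0.00014) and Fosl2 higher (1.06 ± 0.37, adjusted p = 0.049), and the ETS factors Etv4 (-3.75 ± 0.34, adjusted p = 5.8e-05) and Etv1 (-3.26 ± 0.19, adjusted p = 5.6e-06) were lower. Fos, Fosb, Jun, Junb and Jund were not called different between the clones. Of the cluster genes with the AP-1 motif shown above, Mmp3, Mmp10, Mmp1a and Mmp1b were lower in KO1 than in KO2. Mmp13 was not called different (-1.56 ± 1.17, adjusted p = 0.32). Mmp7 and Mmp12, which hold the motif but whose windows are not shown, were also lower in KO1 (adjusted p = 0.0016 and 0.024). Mmp27, with no AP-1 motif in its window, was lower in KO1 too (-2.44 ± 0.36, adjusted p = 0.00086). The part of these factors in the levels of the MMP genes was not tested.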

How the data were processed

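The authors pseudoaligned stranded, paired-end messenger RNA libraries with kallisto 0.46.1 to mouse transcripts (mm10, the same assembly as GRCm38) and deposited estimated counts per gene symbol, not normalized. How transcripts were summed to genes is not given in the sources used here. All estimates were whole numbers (0 exceptions), and libraries were grouped by their titles.

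Counts were scaled with TMM and filtered with filterByExpr, which left 17672 of 55276 genes, and tested with edgeR 4.0.16 (quasi-likelihood, Benjamini-Hochberg, threshold 0.05) in R 4.3.3. The pooled comparison used 2 groups (6 clone and 3 ctrl libraries), the 3 others a fit with 3 groups over all 9. Standard errors are the fold change over the root of F. The limit of detection was 3 counts, 0.0239 to 0.0554 CPM by library, and intervals at 95% cover counting error only. With 53415907 to 125223073 counts a library, the spread between libraries set the precision. Replicates of a group differed by far more than sampling noise (chi-square per degree of freedom 37.9 to 317).

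On simulated data of 17233 genes, 110 of 200 genes changed 2-fold were recovered in the pooled comparison with 8 false calls, 63 in KO1 against ctrl with 7 and 76 in KO2 against ctrl with 5. The simulated clones had the same means, unlike the real ones. The pooled recovery and false calls therefore do not describe the real pooled test. Alternatives were limma-voom (limma 3.58.1), DESeq2 1.42.0, upper-quartile scaling, other filters, the average of the clone contrasts, fits on 6 libraries and leaving out each library. The members and gene lists were chosen with earlier results of these data known. All members were to be named, with library values for those past the threshold in the pooled comparison or in both clones. From each list of partners, at most 3 genes past the threshold with a mean of at least 5 CPM were to be named. Outside this rule, and with their values already seen, Adamtsl2, Cd44, Papln and Runx2 were named, as were the factors marked so above. Positions and lengths came from GENCODE vM21 on GRCm38, another release than the authors used, and promoters from RefSeq. Protein sequences were not used here. Some alleles that all groups share are not reported here.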

Additional observations from a re-analysis of the deposited data

Results flagged for a closer look

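Among the 6 clone libraries, replicate 3 of KO1 was the highest by a wide gap in 8 of 38 tested genes, a gap that chance gives in about 1 in 20 groups of one kind. These 6 libraries are of 2 clones that differed in 28 of the 38 genes, so that rate does not hold for them. The gap to the next library, as a share of the whole range in CPM, was 0.958 for Adamts8, 0.922 for Timp4, 0.904 for Adamts17, 0.808 for Adamts12, 0.657 for Mmp15, 0.651 for Adamts9, 0.642 for Mmp2 and 0.641 for Mmp11.

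The change from ctrl differed between the clones in 28 genes, by the test of KO1 against KO2 (the quasi-likelihood test of edgeR, with Benjamini-Hochberg adjustment). On the log2 scale KO1 minus KO2 was positive for Adamts17 (5.16), Adamts16 (4.62), Timp4 (3.69), Mmp15 (2.38), Adamts10 (2.15), Mmp17 (1.81), Adamts1 (1.76), Adamts12 (1.74), Adamts15 (1.72), Adamts5 (1.57), Mmp14 (1.44), Adamts2 (1.31), Adamts9 (1.17) and Mmp11 (1.04). It was negative for Adamts14 (-0.62), Adamts7 (-0.94), Mmp28 (-1.42), Timp1 (-1.66), Adamts3 (-1.85), Mmp27 (-2.44), Mmp24 (-2.56), Mmp12 (-2.63), Mmp3 (-5.02) and Mmp9 (-5.50). With few or no counts in KO1, Mmp10 was lower there by 1296-fold by counts (95% counting interval 358.5 to 10710), and Mmp1a, Mmp7 and Mmp1b by at least 27.4-fold, 7.74-fold and 4.99-fold. With 1 library left out, some of these calls were lost: Adamts1, Adamts15, Mmp11 and Timp4 without KO1 replicate 3 and without KO2 replicate 2 or 3, Adamts15, Mmp11 and Timp4 also without KO2 replicate 1, Adamts9 without KO2 replicate 1 or 2, and Timp4 without ctrl replicate 1. Adamts15 also lost its call without KO1 replicate 1, and Adamts14 and Mmp12 lost theirs without KO1 replicate 1 or 2 or KO2 replicate 1 or 2, Adamts14 without ctrl replicate 1 as well. Adjusted p without 1 library went up to 0.24, for Timp4.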

How the results depend on the processing

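With 1 library left out in turn, the members higher and lower numbered 14 to 19 and 3 to 5 in KO against ctrl, 20 to 21 and 9 to 11 in KO1, 18 to 23 and 6 to 7 in KO2, and 9 to 16 and 12 to 15 in KO1 against KO2. The average of the clone contrasts gave 10 lower members in place of 4 (Mmp10, Mmp15, Mmp17, Mmp1a, Mmp1b and Mmp9 in addition), and a filter at a mean of 1 CPM, which removes low genes such as Mmp1a from the test, gave 3 in place of 6 lower in KO2 and 8 in place of 14 lower in KO1 against KO2. Under limma-voom, 14 members were higher in KO against ctrl (without Adamts8, Adamts10, Adamts16 and Adamts17) and 5 lower (with Mmp1b). DESeq2 gave no adjusted p for Adamts8 and Timp4 in KO and KO1 against ctrl, for Adamts17 in KO1 against ctrl, or for Adamts17 and Timp4 in KO1 against KO2. With the mean transcript length, 8 of the 10 most abundant members per kb were shared. No fold change that passed the threshold changed sign under any alternative. Changes of sign were limited to pooled values that did not pass it: limma-voom gave Mmp10 -3.03, Mmp12 -0.59 and Mmp24 -0.30 (0.85, 0.29 and 0.20 otherwise), and the average of the clones gave -3.20 (adjusted p = 3.1e-05), -0.26 and -0.30. With 1 library left out, log2 fold changes spanned -0.70 to 0.58 for Adamts15, -0.30 to 0.55 for Mmp12, -0.45 to 0.17 for Mmp1a, -0.17 to 0.030 for Mmp23, -0.063 to 0.59 for Mmp24 and -0.19 to 0.14 for Mmp28. Upper-quartile scaling moved the median of all genes in KO1 against KO2 to 0.11, from 0.04. No paired analysis was possible because the labels give no replicate numbers shared between groups. Genes under 1 CPM rest on few counts, and with 1 clone per group an effect of Vcam1 loss and other differences between single-cell clones cannot be told apart.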
